A study of Mus musculus with 32 samples.

Results

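Quadriceps muscle of 5-week-old female mice was compared between Col6a2-/- and wild-type (WT) animals, with 4 libraries of each genotype. These 8 libraries were chosen by their sample titles from a series of 32, which also holds males and mice of 25 weeks. The 4 Col6a2-/- mice carried a KOMP knockout allele, Col6a2tm1(KOMP)Vlcg, made in C57BL/6N; heterozygous breeders, crossed back to C57BL/6J for 5 generations, gave the mice, so WT and knockout animals share a mixed background of these substrains. The allele is not restricted to a tissue by the labels, no agent was given, and the labels count 4 mice for each sex, genotype and age, so each library is 1 mouse. The series title names TGFβ control by collagen VI in skeletal muscle as its subject.

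Collagen VI is a protein of the extracellular matrix that forms beaded microfibrils around muscle fibres and other cells. It is assembled inside the cell from chains encoded by Col6a1, Col6a2 and Col6a3, and without the chain made by Col6a2 no stable collagen VI is secreted. In people, loss or change of these chains causes Ullrich congenital muscular dystrophy and Bethlem myopathy. Injured or diseased muscle is known to switch on developmental myosins and acetylcholine receptor subunits again, and to fill with macrophages that present antigen and clear debris.

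Values are TPM, the abundance of a gene per length, scaled to the same total in each library, and per-library values are given in the order of replicates 1 to 4. A change is the difference of mean log2(TPM + 1), Col6a2-/- minus WT, with its standard error (SE). A gene is called where the limma p adjusted by Benjamini-Hochberg over 12817 tested genes is under 0.05. Relative depth ran from 7.29 to 12.7 in WT and from 7.45 to 13.7 in Col6a2-/- libraries, in gigabases as inferred from the tables. Mitochondrial RNA took 36.4% to 42.6% of TPM in WT and 33.1% to 43.0% in Col6a2-/-, and Rn7s RNA took 22.3% to 26.9% over the 8 libraries. Rn7s here means every gene whose name starts with Rn7s, which takes in RNA of the signal recognition particle and, by name, Rn7sk. Fibre genes were at the top of the tables in both genotypes: skeletal actin Acta1 had 7172 to 8411 TPM in WT and 7068 to 8704 in Col6a2-/-, and muscle creatine kinase Ckm had 3288 to 3791 and 2383 to 3642. In bulk tissue, more cells of a type and more RNA per cell cannot be told apart.

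Col6a2 (ENSMUSG00000020241, GRCm38 chromosome 10, 76595762 to 76623630, minus strand) was read in the samples first. It had 19.9, 19.9, 28.2 and 30.2 TPM in WT and 0.0206, 0, 0 and 0.00358 TPM in Col6a2-/- libraries. No Col6a2-/- library came near the WT range, and replicates 2 and 3 are listed at 0. The change was -4.64 (SE 0.134, adjusted p 7.02e-21), and the exact permutation test gave 0.0286 (two-sided), the smallest p that the 70 splits of 4 against 4 allow. The genotype labels of all 8 libraries held in this check, which does not read sex or age.

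Loss of Col6a2 at this age came with higher RNA of developmental muscle genes, acetylcholine receptor subunits, macrophage and antigen presentation genes and part of the matrix genes. Of 12817 genes, 1648 were called (12.9%), 1575 higher (12.3%) and 73 lower (0.57%). Of the called genes, 174 were at least 2-fold higher and 5 at least 2-fold lower on the log2(TPM + 1) scale. In 792 called genes the 4 Col6a2-/- libraries did not overlap the 4 WT libraries, 746 above (5.82% of tested genes) and 46 below (0.359%). The other 856 called genes overlapped. Among all tested genes, called or not, 8.53% lay wholly above and 0.663% wholly below the WT libraries.

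The size of the excess of higher genes moves with the scaling. On the deposited scale the median tested gene was itself higher by 0.17 in Col6a2-/-. With median-of-ratios scaling that median is -0.02, and 939 genes are higher against 867 lower. Quantile normalization gives 834 and 768, rescaling without the 100 most abundant genes gives 1302 and 434, and rescaling without mitochondrial and Rn7s genes gives 778 and 85. Under the deposited scale and 4 other scalings, 739 genes were called in the same direction, 674 higher and 65 lower. A fit on these 8 libraries alone, which takes the spread only from them, called 104 genes (0.811%), 99 higher (0.772%) and 5 lower; 102 of them were also called in the fit on 32 libraries, and all 102 had groups that did not overlap. Of 143 called genes that were named by rule, list members included, 21 kept their call in all alternatives in which they were tested. They are Aldh3a1, Ankrd1, Ccl6, Chrng, Col6a2, Ctss, H2-Ab1, H2-Eb1, Krt18, Lgals3, Lyz2, Mt2, Myh3, Myl4, Mymk, Mymx, Rnu3a, Rrad, S100a4, Sln and Tnnt2. Of these, Col6a2 and Rnu3a were lower and the other 19 higher. Rnu3a is uncertain, since 2 IDs share its locus and their sum was 152 to 197 TPM in WT and 196 to 350 TPM in Col6a2-/-.

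**Figure D1:**
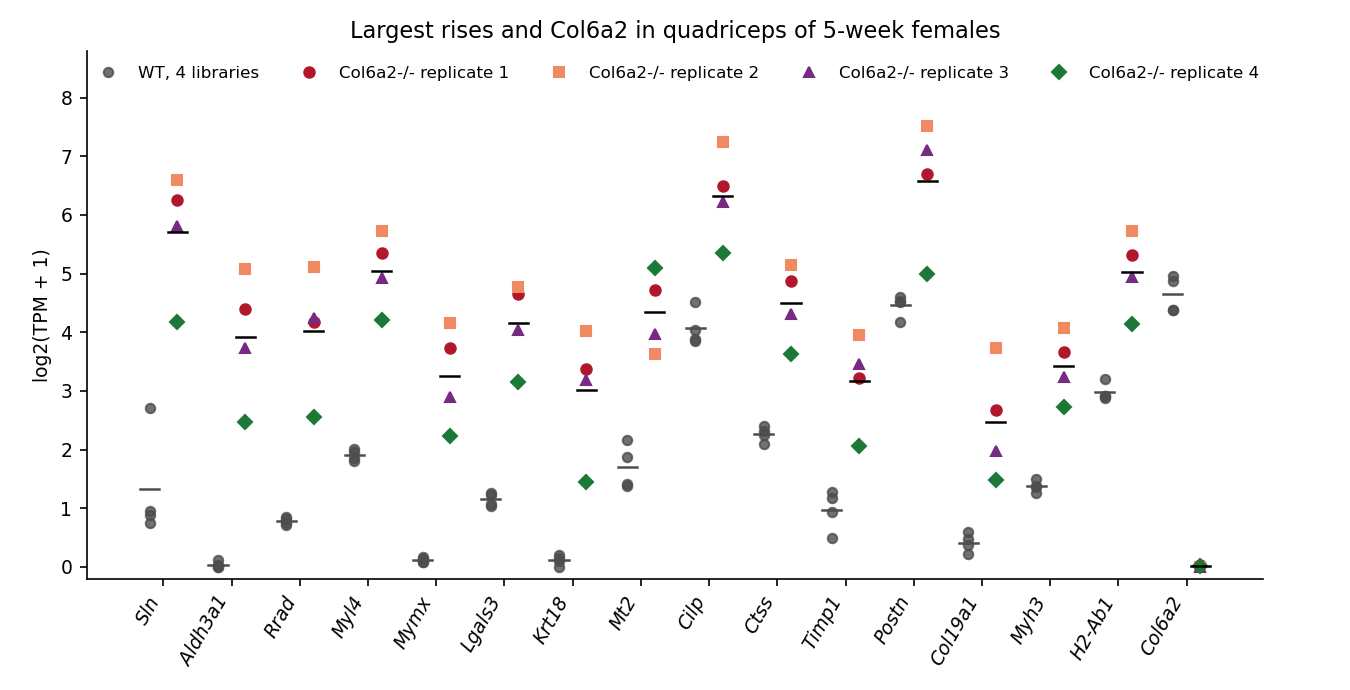
Each point is the log2(TPM + 1) of 1 library for the 15 largest rises without overlap and for Col6a2; WT libraries are grey, the 4 Col6a2-/- replicates have a shape each, and short lines are group means. Replicate 2 is the highest Col6a2-/- library and replicate 4 the lowest for most of the rising genes, while for Mt2 replicate 4 is the highest.

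Sln (ENSMUSG00000042045, chromosome 9, 53850164 to 53854560, plus strand) led the rises; it encodes sarcolipin, a small membrane protein that uncouples the calcium pump of the sarcoplasmic reticulum. Sln had 0.687, 5.53, 0.926 and 0.841 TPM in WT and 75.7, 95.8, 55 and 17.0 TPM in Col6a2-/-. WT replicate 2 stood above the other WT libraries and still below the lowest knockout library. The change was 4.39 (SE 0.422, adjusted p 5.41e-08).

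Aldh3a1 (ENSMUSG00000019102, chromosome 11, 61207537 to 61218421, plus strand), an aldehyde dehydrogenase that detoxifies lipid aldehydes, had 0, 0.0853, 0.0207 and 0 TPM in WT and 20.0, 32.9, 12.3 and 4.52 TPM in Col6a2-/-. The groups did not overlap, and 2 WT libraries are listed at 0. It changed by 3.88 (SE 0.286, adjusted p 1.64e-10). Rrad (ENSMUSG00000031880, chromosome 8, 104628070 to 104631327, minus strand), a small GTPase-like protein that inhibits calcium channels and is raised in damaged muscle, went from 0.645, 0.795, 0.679 and 0.761 to 17.1, 33.6, 17.9 and 4.85 TPM. Its WT libraries lay close together, while the knockout libraries differed among themselves, with replicate 4 lowest. Rrad changed by 3.24 (SE 0.359, adjusted p 6.67e-07).

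Krt18 (ENSMUSG00000023043, chromosome 15, 102028180 to 102032027, plus strand), a keratin of simple epithelia, was near 0 in WT, with 0.0756, 0, 0.143 and 0.106 TPM, and had 9.41, 15.1, 8.13 and 1.72 TPM in Col6a2-/-. Its change was 2.90 (SE 0.282, adjusted p 5.64e-08). Its usual partner Krt8, named after its values were seen, was listed at 0 in all 4 WT libraries and had 2.03, 2.75, 1.36 and 0.505 TPM in Col6a2-/-, the same order of libraries as Krt18. Timp1 (ENSMUSG00000001131, chromosome X, 20870166 to 20874735, plus strand), an inhibitor of matrix metalloproteinases, had 0.403, 1.42, 0.918 and 1.26 TPM in WT and 8.36, 14.5, 10.1 and 3.15 TPM in Col6a2-/-; the groups did not overlap and the change was 2.21 (SE 0.313, adjusted p 4.66e-05). Timp1 overlaps Syn1 on the other strand, and without a stated strand setting reads of these genes cannot be told apart. Col19a1 (ENSMUSG00000026141, chromosome 1, 24261890 to 24587472, minus strand), a collagen known from differentiating muscle cells, had 0.292, 0.502, 0.387 and 0.159 TPM in WT and 5.41, 12.3, 2.94 and 1.78 in Col6a2-/-, a change of 2.06 (SE 0.274, adjusted p 1.62e-05).

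Genes of muscle formation and regeneration rose in most members. Of 15 tested members, 10 were called higher and 0 lower, beside 12.3% higher among all tested genes, and the median change was 0.95 against 0.17. Membrane proteins that fuse myoblasts and embryonic contractile proteins had the largest changes of the list. Mymx (ENSMUSG00000079471, chromosome 17, 45600971 to 45602102, minus strand), the fusion peptide myomixer, had 0.0937, 0.116, 0.0534 and 0.0596 TPM in WT and 12.2, 16.8, 6.46 and 3.70 TPM in Col6a2-/-. All 4 knockout libraries were above all WT libraries, with replicate 2 highest and replicate 4 lowest. The change of Mymx was 3.14 (SE 0.229, adjusted p 1.52e-10), and that of its partner Mymk (myomaker) was 1.97 (SE 0.192, adjusted p 5.64e-08), from 0.192, 0.163, 0.610 and 0.342 to 5.47, 7.45, 3.0 and 2.21 TPM.

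Myl4 (ENSMUSG00000061086, chromosome 11, 104550663 to 104595753, plus strand), the embryonic and atrial myosin light chain, had 2.51, 2.87, 2.62 and 3.02 TPM in WT and 40.0, 51.8, 29.3 and 17.4 TPM in Col6a2-/-. WT spread was small beside the gap to the lowest knockout library. Myl4 changed by 3.14 (SE 0.227, adjusted p 1.52e-10). Embryonic myosin heavy chain Myh3 (ENSMUSG00000020908, chromosome 11, 67078300 to 67102291, plus strand) went from 1.40, 1.59, 1.56 and 1.81 to 11.7, 15.8, 8.46 and 5.63 TPM, again with no overlap and the same order of knockout libraries, a change of 2.05 (SE 0.225, adjusted p 5.96e-07). Cardiac and embryonic troponin Tnnt2 changed by 1.79 (adjusted p 6.67e-07), from 1.04, 0.772, 0.974 and 0.821 to 6.86, 9.49, 4.19 and 3.37 TPM.

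The transcription factors of the lineage differed among themselves. Myogenin (Myog), which drives differentiation, had 2.86, 3.78, 4.74 and 3.16 TPM in WT and 19, 26.7, 13.3 and 6.66 TPM in Col6a2-/-, without overlap, and changed by 1.78 (SE 0.269, adjusted p 9.49e-05). Myf6, the factor of mature fibres, rose by 0.40 (adjusted p 0.0178), from 25.1 to 30.4 TPM in WT to 33.3 to 43.8 TPM. Myod1, which acts earlier, had 1.96, 2.0, 2.36 and 1.82 and 3.28, 6.40, 4.18 and 1.42 TPM with overlap, a change of 0.56 that was not called (adjusted p 0.135). Myf5 of activated satellite cells was not called either (change 0.12, adjusted p 0.412), and the satellite cell factor Pax7 stayed under the TPM filter, with 0.306 to 0.451 TPM in WT and 0.329 to 0.474 TPM in Col6a2-/-. The cell cycle inhibitor Cdkn1c (1.15, adjusted p 0.00723), the growth factor Igf2 (0.95, adjusted p 0.0421) and the adhesion molecule Vcam1 (0.56, adjusted p 0.00793) were called higher. Perinatal myosin Myh8, with 104, 113, 98.8 and 119 TPM in WT and 97.2, 153, 66.9 and 102 in Col6a2-/-, did not follow Myh3 (change -0.11, adjusted p 0.683), and neither did cardiac actin Actc1 (0.16, adjusted p 0.785). Without knockout replicate 2 the count of called members was 6, without replicate 4 it was 12, and in the fit on 8 libraries it was 6.

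Acetylcholine receptor subunits and other genes that muscle raises when it loses its nerve were also higher. Of 10 tested members of this list, 8 were called higher and 0 lower, with a median change of 1.25, beside 12.3% of all tested genes called higher. In the fits with median-of-ratios and quantile scaling 8 were called, and in the fit on 8 libraries 5, which became 1 when any 1 WT library or knockout replicate 1 was left out of that fit. Chrng (ENSMUSG00000026253, chromosome 1, 87204657 to 87212694, plus strand), the fetal γ subunit of the receptor, was listed at 0 in 3 WT libraries and at 0.0244 TPM in the fourth. It had 2.38, 2.24, 1.78 and 0.749 TPM in Col6a2-/-, a change of 1.43 (SE 0.132, adjusted p 2.52e-08). The α subunit Chrna1 had 2.61, 3.0, 1.96 and 1.22 TPM in WT and 8.61, 13.2, 5.17 and 4.67 in Col6a2-/-, without overlap, a change of 1.41 (SE 0.255, adjusted p 0.000691).

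The adult ε subunit Chrne, which replaces Chrng after birth, had 5.40, 4.83, 3.29 and 2.62 TPM in WT and 6.94, 7.79, 3.25 and 6.05 in Col6a2-/-. Its groups overlapped and the change of 0.46 was not called (adjusted p 0.310). Subunits Chrnd (1.2, adjusted p 4.27e-05) and Chrnb1 (0.70, adjusted p 0.0188) rose, as did the receptor-clustering kinase Musk (0.66, adjusted p 0.00511) and the adhesion molecule Ncam1 (1.32, adjusted p 0.000688). The transcription factor Runx1 went from 0.296, 0.503, 0.513 and 0.499 to 2.72, 4.65, 2.46 and 1.18 TPM (1.29, adjusted p 9.47e-05), and the stress-inducible Gadd45a from 7.06, 9.02, 6.72 and 5.16 to 22.5, 42.1, 20.3 and 12.0 TPM (1.55, adjusted p 0.000201). Hdac4, a regulator of the response to denervation, was at 0.41 (adjusted p 0.0989) and not called. Markers of Schwann cells, the glia of the nerve, gave 0 calls of 5 tested members (median 0.47).

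The promoters of Chrna1 and Chrng are shown. Both subunits rose, as did Chrnd and Chrnb1, whose promoters are not shown. Receptor subunit promoters are a textbook case of control by myogenic factors through E-boxes, and whether such control took part here was not tested. Capitals mark CAGCTG, an E-box that reads the same on both strands; each sequence runs 5′ to 3′ on the gene's strand, from 250 bases before the start to 50 after it, from RefSeq on GRCm38.p6. Chrna1 is at chr2:73580289-73580588 on the minus strand and Chrng at chr1:87205561-87205860 on the plus strand. The Chrng window follows the RefSeq start, and it lies inside the gene as annotated for the TPM values, which starts upstream of it, at 87204657.
Chrna1: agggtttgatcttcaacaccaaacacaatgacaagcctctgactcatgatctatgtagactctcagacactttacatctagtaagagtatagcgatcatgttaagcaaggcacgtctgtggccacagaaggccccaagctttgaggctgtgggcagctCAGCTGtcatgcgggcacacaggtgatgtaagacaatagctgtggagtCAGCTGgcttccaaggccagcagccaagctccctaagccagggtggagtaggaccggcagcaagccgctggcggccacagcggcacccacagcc
Chrng: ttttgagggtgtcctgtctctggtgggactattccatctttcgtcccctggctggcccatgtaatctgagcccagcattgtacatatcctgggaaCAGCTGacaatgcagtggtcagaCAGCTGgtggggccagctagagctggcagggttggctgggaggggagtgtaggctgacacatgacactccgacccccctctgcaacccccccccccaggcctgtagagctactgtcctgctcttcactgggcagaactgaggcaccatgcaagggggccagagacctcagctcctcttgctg
Both hold 2 matches. The motif counts cover 8 of the 11 denervation genes and 10 of the 16 regeneration genes, as many as were called in each list. Of these 8 denervation genes with a promoter entry, 4 held CAGCTG and 2, the Chrna1 and Chrng shown here, held it at least 2 times. Of the 10 regeneration genes, 1 held it. Among all 32851 promoters of the same length the shares were 16.3% with 1 or more and 1.90% with 2 or more. A match is a description of letters in this window and not a site.

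In the other muscle lists a smaller share of members was called, and the difference between lists was not tested. In the list of muscle stress and stretch, 3 of 13 tested members were called higher (Sln, Rrad and Ankrd1) and 1 lower (Ankrd23), beside 12.3% and 0.57% of all tested genes. Ankrd1, a titin-associated repeat protein induced by stretch, had 2.11, 2.03, 2.20 and 2.20 TPM in WT and 11, 15.0, 11.3 and 5.45 in Col6a2-/- (1.82, SE 0.298, adjusted p 0.000217). Its relative Ankrd23 went the other way, from 655, 641, 622 and 652 to 291, 496, 476 and 475 TPM (-0.59, SE 0.175, adjusted p 0.0260), without overlap. That call was lost in 13 of 28 alternatives, among them the fit on 8 libraries, quantile normalization and leaving out WT replicate 1 or 2 or knockout replicate 1. Ankrd2, of the same family, had 37.9, 36.1, 27.3 and 29.2 TPM in WT, and its knockout libraries fell on both sides at 20.6, 10.8, 57.2 and 53.4 TPM.

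Contractile genes of adult fibres gave no call: 0 of 12 fast and 0 of 9 slow genes, with medians of -0.26 and -0.28. Fast myosin Myh4 had 3978, 5041, 4239 and 4783 TPM in WT and 3324, 6379, 2222 and 3758 in Col6a2-/-. All 4 knockout libraries lay outside the WT range, 1 above it and 3 below it. Median-of-ratios scaling called 8 of 12 fast genes lower and array weights 7 of 12, while quantile normalization and rescaling without mitochondrial and Rn7s genes called 0; without the 100 most abundant genes, none of the 12 was tested. Slow myosin Myh7 had 27.7, 98.9, 46.7 and 42.6 TPM in WT and 22.5, 33.8, 68.9 and 19.8 in Col6a2-/-, so WT replicate 2 and knockout replicate 3 were the libraries with most slow fibre RNA.

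A few membrane repair genes rose. Of 14 members of the list of membrane repair and the dystrophin complex, 3 were called higher, beside 12.3% of all tested genes: Trim72, a muscle membrane patching protein (0.54, adjusted p 0.0334), and the annexins Anxa1 (0.87, adjusted p 0.00536) and Anxa2 (1.04, adjusted p 0.00267). Dystrophin (Dmd) had 25.7, 30.3, 28.1 and 29.1 and 25.2, 35.9, 22.4 and 28.5 TPM, a change of -0.03. In the atrophy and autophagy list, 2 of 14 were called higher, a share near the 12.3% of all tested genes, the ubiquitin ligase Fbxo30 (0.50, adjusted p 0.00799) and the autophagy gene Gabarapl1 (0.42, adjusted p 0.0373). The main atrophy ligases were not called: Fbxo32 had 9.77, 14.1, 11.3 and 14.9 TPM in WT and 17.5, 27.3, 12.9 and 19.8 in Col6a2-/- (change 0.56, adjusted p 0.0648), and Trim63 changed by 0.42 (adjusted p 0.0987). This list gave 0 calls without knockout replicate 2 and without mitochondrial and Rn7s genes, and 0 higher and 2 lower after quantile normalization, and the membrane repair list gave 0 in the fit on 8 libraries and 2 higher and 2 lower (median -0.04) with median-of-ratios scaling.

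Targets of p53 and stress genes gave a mixed picture. Of 8 tested members of the p53 and growth arrest list, 3 rose, beside 12.3% of all tested genes. Cdkn1a, the cell cycle inhibitor p21, went from 2.09, 2.45, 3.21 and 4.18 to 15.0, 22.8, 11.2 and 6.50 TPM (1.81, SE 0.301, adjusted p 0.000269), without overlap. The receptor Eda2r went from 2.10, 2.63, 2.07 and 1.88 to 11.3, 20.4, 8.55 and 5.18 TPM (1.82, SE 0.231, adjusted p 7.77e-06), and Phlda3 changed by 0.46 (adjusted p 0.0293). Mdm2 (0.48) and Bax (0.35) were not called. The count was 5 without knockout replicate 4 and 2 in the fit on 8 libraries, where it became 0 without WT replicate 1, 2 or 3 or knockout replicate 1. In the list of integrated and oxidative stress, 5 of 12 tested members rose: Aldh3a1, Mt2, Mt1, Hmox1 (1.13, adjusted p 0.000191) and Srxn1 (0.73, adjusted p 0.00313). The antioxidant genes Nqo1 (-0.03, adjusted p 0.876) and Gclc (0.21, adjusted p 0.204) and the stress factor Atf3 (1.41, adjusted p 0.0590) were not called. Nor were Atf4, Ddit3, Asns and Chac1, of the amino acid response, with changes from -0.77 to 0.28. The 5 calls of 12 also stand beside 12.3% of all tested genes. There were 8 without knockout replicate 4 and 3 in the fit on 8 libraries, which became 2 without any 1 library other than knockout replicate 2 or 4. The untested hormone gene Fgf21 was listed at 0 in the WT libraries and had 0.879, 0.434, 0.774 and 0.327 TPM in Col6a2-/-.

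The metallothioneins Mt1 and Mt2, which bind zinc and copper, broke the usual order of the knockout libraries. Mt2 (ENSMUSG00000031762, chromosome 8, 94172664 to 94173568, plus strand) had 1.66, 3.46, 1.6 and 2.65 TPM in WT and 25.3, 11.4, 14.6 and 33.1 TPM in Col6a2-/-. Mt1 had 10.1, 10.8, 7.17 and 9.94 and 32.7, 17.9, 25.6 and 52.3 TPM. In both genes replicate 4 was the highest and replicate 2 the lowest knockout library, and the groups did not overlap. The change was 2.65 (SE 0.402, adjusted p 9.49e-05) for Mt2 and 1.57 (SE 0.293, adjusted p 0.000944) for Mt1. Mt3, also on chromosome 8 (94152607 to 94154146) and named after its values were seen, did not share this order. It had 0.501, 0.732, 0.312 and 0.247 TPM in WT and 4.24, 6.01, 3.13 and 1.66 TPM in Col6a2-/- (1.64, adjusted p 1.34e-06), with replicate 2 highest and replicate 4 lowest.

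The promoters of Mt1 and Mt2 are shown because these neighbouring genes share that unusual order, which Mt3 does not. Capitals mark TGCNCNC, a looser form of the core of the metal response element bound by Mtf1, so a marked stretch need not fit the core itself, searched on both strands with overlaps merged. The windows and the source are as above, with Mt1 at chr8:94178839-94179138 and Mt2 at chr8:94172368-94172667, both on the plus strand.
Mt1: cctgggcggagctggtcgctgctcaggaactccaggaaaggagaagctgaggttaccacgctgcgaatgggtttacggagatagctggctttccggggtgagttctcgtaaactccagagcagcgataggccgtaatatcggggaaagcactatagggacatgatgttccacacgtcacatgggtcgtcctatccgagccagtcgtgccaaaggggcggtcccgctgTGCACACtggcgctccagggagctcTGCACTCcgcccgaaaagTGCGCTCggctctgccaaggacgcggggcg
Mt2: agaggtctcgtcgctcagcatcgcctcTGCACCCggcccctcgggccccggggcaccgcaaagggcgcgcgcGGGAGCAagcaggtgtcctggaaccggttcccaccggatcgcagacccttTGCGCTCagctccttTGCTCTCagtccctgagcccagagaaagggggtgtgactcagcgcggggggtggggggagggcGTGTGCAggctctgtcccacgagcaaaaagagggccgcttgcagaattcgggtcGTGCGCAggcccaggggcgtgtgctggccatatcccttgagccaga
Mt1 holds 3 matches and Mt2 holds 6, where 51.0% of all promoters hold at least 1 and 7.10% at least 3.

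Of 7 members of the polyamine list 2 were called higher and 1 lower, beside 12.3% and 0.57% of all tested genes. Odc1, the first enzyme of the pathway, rose from 11.4, 10.7, 11.4 and 11.9 to 16.9, 31.4, 15.7 and 14.5 TPM (0.67, adjusted p 0.0101). The catabolic Sat1 rose by 0.52 (adjusted p 0.0439). Amd1, which supplies the aminopropyl groups, fell from 29.0, 43.6, 31.7 and 28.3 to 19.3, 27.0, 20.0 and 24.9 TPM (-0.51, adjusted p 0.0363), with no overlap. Among the immediate early genes, 3 of 7 were called higher, beside 12.3% of all tested genes: Junb (1.32, adjusted p 0.00237), Jun (0.69, adjusted p 0.0150) and Ier2 (0.42, adjusted p 0.0373). Fos lay wholly above WT, with 1.86, 0.949, 2.25 and 2.24 TPM against 3.74, 17.1, 11.1 and 4.07 TPM, and missed the threshold (1.62, adjusted p 0.0516). This list gave 1 call with median-of-ratios or quantile scaling, 1 without knockout replicate 2 and 0 in the fit on 8 libraries. The polyamine list also gave 0 in that fit. Its lower call was lost without WT replicate 1, 2 or 3 or knockout replicate 1 or 3, and both higher calls without knockout replicate 2.

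**Figure D2:**
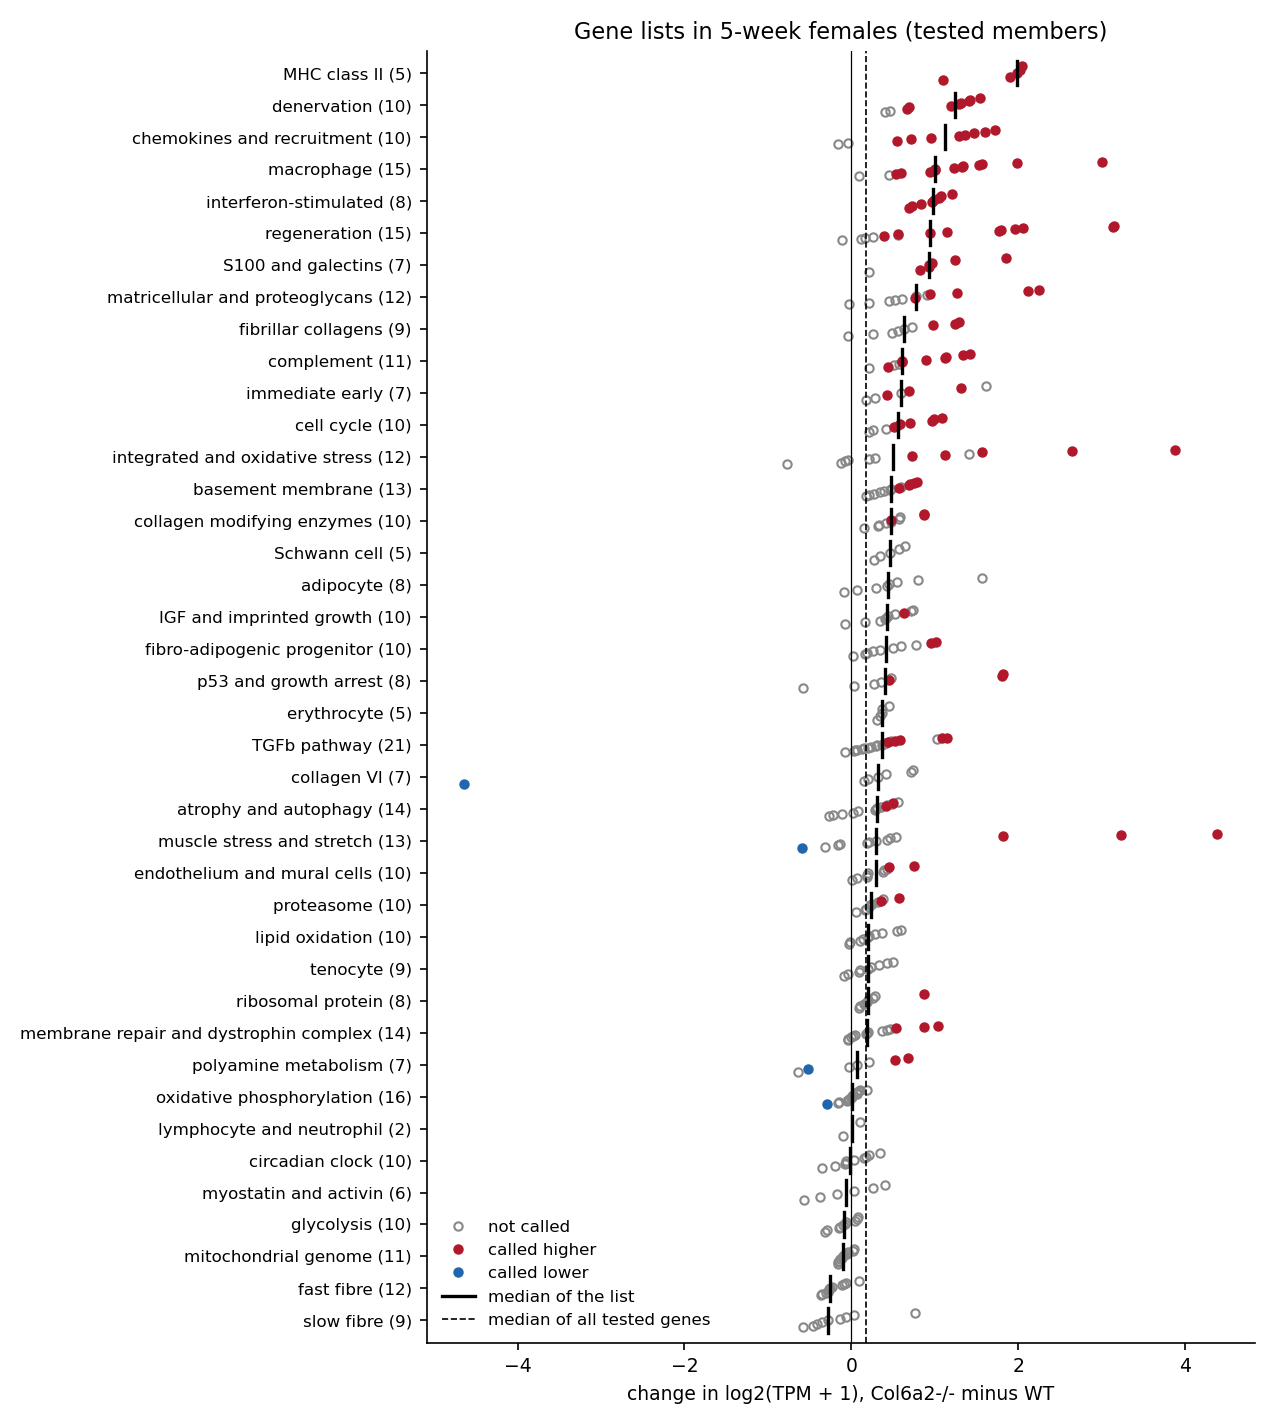
Each point is the change in log2(TPM + 1), Col6a2-/- minus WT, of 1 tested member of a gene list (number of members in brackets), red where called higher, blue where called lower and open where not called; black ticks are list medians and the dashed line is the median of all tested genes at 0.17. The MHC class II, denervation, chemokine, macrophage and interferon lists lie highest, and the fibre lists lie below 0.

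Macrophage genes rose as a group. Of 15 tested members, 13 were called higher and 0 lower, with a median change of 1.01, and 12 of the 15 had 4 knockout libraries above 4 WT libraries. Over all tested genes these shares were 12.3% and 8.53%. Lgals3 (ENSMUSG00000050335, chromosome 14, 47367751 to 47386160, plus strand), galectin-3 of phagocytic macrophages, had 1.11, 1.06, 1.33 and 1.38 TPM in WT and 24.2, 26.4, 15.4 and 7.91 TPM in Col6a2-/-. The knockout libraries spanned more than the WT libraries and stayed well above them. Lgals3 changed by 3.01 (SE 0.256, adjusted p 4.1e-09). Lysozyme Lyz2 went from 28.3, 31.0, 30.0 and 26.4 to 135, 202, 111 and 61.7 TPM (1.98, SE 0.264, adjusted p 1.62e-05); its near-identical copy Lyz1, named after its values were seen, had 3.60, 3.61, 3.12 and 3.03 and 15.1, 29.2, 12.8 and 9.89 TPM, and how reads were split between the copies is uncertain.

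The defining markers rose too. Adgre1, the F4/80 antigen, had 2.07, 2.12, 2.46 and 2.17 TPM in WT and 8.81, 14.3, 6.57 and 2.84 in Col6a2-/- (1.34, adjusted p 0.00227). Replicate 4 exceeded the highest WT library only narrowly. Cd68 of lysosomes changed by 1.53 (adjusted p 0.000177), the colony stimulating factor receptor Csf1r by 1.01 (adjusted p 0.00349), and the integrin Itgam by 1.23 (adjusted p 0.00830). The signalling adaptors Tyrobp (1.57) and Fcer1g (1.33), the lipid-sensing receptor Trem2 (0.94), Gpnmb (0.97), osteopontin Spp1 (1.01), Cd163 (0.60) and Cd14 (0.54) were called higher. Mrc1 and Lyve1, markers of tissue-resident macrophages, were the members not called: Mrc1 had 7.97, 9.14, 8.61 and 8.60 TPM in WT and 12.0, 23.5, 11.2 and 6.61 in Col6a2-/- (change 0.45, adjusted p 0.191), and Lyve1 changed by 0.09 (adjusted p 0.710). The cathepsin gene Ctss (ENSMUSG00000038642, chromosome 3, 95526786 to 95556403, plus strand), which trims the invariant chain for antigen presentation, went from 3.26, 4.31, 3.98 and 3.76 to 28.2, 34.5, 19 and 11.4 TPM (2.23, SE 0.242, adjusted p 5.96e-07). In the fit on 8 libraries 6 members of the macrophage list were called, which became 2 without any 1 WT library or knockout replicate 1 or 3, 3 without replicate 2 and 13 without replicate 4. In the fit on 32 libraries 9 were called without knockout replicate 2.

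MHC class II genes, which present antigen to T cells, were the list with the highest median. All 5 tested members were called higher with no overlap, and the median change was 1.99. The counts of this and the next immune lists stand beside the 12.3% of all tested genes called higher. H2-Ab1 (ENSMUSG00000073421, chromosome 17, 34263209 to 34269418, plus strand) had 6.54, 6.32, 8.23 and 6.57 TPM in WT and 38.9, 51.9, 29.6 and 16.6 TPM in Col6a2-/-. H2-Aa had 11.6, 10.2, 16.1 and 12.4 and 67.1, 86.5, 46.0 and 27.7 TPM, and the invariant chain Cd74 had 16.8, 11.1, 24.2 and 19.1 and 61.7, 112, 68.3 and 42.7 TPM. In these 3 genes even the lowest knockout library, replicate 4, exceeded the highest WT library by more than the WT range. The changes were 2.05 for H2-Ab1 (SE 0.310, adjusted p 9.49e-05), 2.02 for H2-Eb1, 1.99 for H2-Aa, 1.91 for Cd74 and 1.10 for H2-DMa. Ciita, the factor that switches these genes on, stayed under the TPM filter with 0.0712 to 0.279 TPM in WT and 0.508 to 1.26 TPM in Col6a2-/-. In the fit on 8 libraries 4 of the 5 were called, which became 2 without WT replicate 1 and 3 without WT replicate 2.

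Chemokines and their receptors gave 8 calls among 10 tested members, 8 higher and 0 lower, with a median of 1.12. Ccl6 went from 4.59, 3.70, 4.19 and 4.67 to 19.1, 21.3, 13.3 and 9.38 TPM (1.61, SE 0.290, adjusted p 0.000691), and the monocyte chemokine Ccl2 from 0.177, 0.0768, 0.251 and 0.402 to 2.44, 4.20, 4.05 and 0.458 TPM (1.47, adjusted p 0.000441). In Ccl2, knockout replicate 4 lay just above WT replicate 4. Ccr2, the receptor of Ccl2 on monocytes, had 0.932, 1.12, 1.11 and 0.921 TPM in WT and 4.82, 7.44, 3.03 and 2.62 in Col6a2-/- (1.36, adjusted p 0.00251), and Ccl8, Ccl9, Ccl7, Cx3cl1 and Cx3cr1 were called at 0.55 to 1.72. The stromal chemokines Cxcl12 (-0.03) and Cxcl14 (-0.16) were not called. The count was 5 without knockout replicate 2 and 3 in the fit on 8 libraries, which became 1 without any 1 WT library or knockout replicate 1.

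Complement genes gave 8 calls among 11 members, 8 higher and 0 lower (median 0.61). The chains of C1q, which macrophages make, led: C1qb had 7.24, 7.40, 7.43 and 8.68 TPM in WT and 30.9, 34.5, 22.8 and 9.78 TPM in Col6a2-/- (1.42, adjusted p 0.000302), C1qa changed by 1.34 and C1qc by 1.12. The central component C3 had 12.4, 12.2, 16 and 16.2 and 18.2, 16.3, 24.4 and 9.95 TPM, overlapping, and was not called (0.21, adjusted p 0.689). None of the 8 was called in the fit on 8 libraries, and the count was 3 without knockout replicate 2, 4 without knockout replicate 1 and 5 without WT replicate 1, 2 or 3.

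The list of S100 proteins and galectins had 6 of 7 members higher. S100a4, made by migrating fibroblasts and macrophages, had 8.37, 10.1, 7.93 and 9.80 TPM in WT and 43.0, 50.7, 35.0 and 20.0 in Col6a2-/- (1.86, SE 0.269, adjusted p 5.73e-05), with no overlap. S100a6, S100a10, S100a11, Lgals1 and Tmsb10 were called at 0.82 to 1.24, and 1 member was called in the fit on 8 libraries. Lymphocyte and neutrophil markers stayed near 0: only S100a8 and S100a9 of 11 genes passed the TPM filter, neither was called, and the summed TPM of the list was 0.835 to 1.49 in WT and 0.311 to 3.44 in Col6a2-/-. The neutrophil marker Ly6g is listed at 0 in the 8 libraries, and the T cell genes Cd3e and Cd8a had at most 0.0552 TPM. Other members were higher in part of the knockout libraries: Cd4 had 0.0408, 0.0223, 0.115 and 0.0762 TPM in WT and 0.284, 0.636, 0.242 and 0.0509 TPM in Col6a2-/-, and the neutrophil gene Retnlg had 0.309, 0, 0 and 0 TPM in WT and 0.749, 0.674, 0.284 and 0.0584 TPM in Col6a2-/-. Without the TPM filter 1 of 10 tested members was called higher.

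Interferon-stimulated genes were higher in 3 of the 4 knockout mice. All 8 list members were called higher (median 0.98), and in none of the 8 did the groups separate. Irf7, the master factor of the response, had 1.08, 1.09, 1.09 and 1.59 TPM in WT and 5.45, 5.03, 5.89 and 1.51 TPM in Col6a2-/- (1.21, SE 0.224, adjusted p 0.000871). Ifit1, which binds viral RNA, had 0.973, 1.05, 0.873 and 1.41 and 4.84, 7.38, 2.82 and 0.936 TPM (1.08, adjusted p 0.00393). Replicates 1 to 3 were above the WT range and replicate 4 inside it in both genes. As a mean over the list, replicates 1 to 4 stood at 1.29, 1.65, 0.85 and -0.01 relative to the WT mean, and WT libraries ranged from -0.11 to 0.27. The list gave 0 calls in the fit on 8 libraries, 3 without knockout replicate 2 and 5 without knockout replicate 1.

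The promoters of Isg15, a ubiquitin-like modifier, and Ifit1 are shown since the list moved together in 3 libraries. Capitals mark GAAA-NN-GAAA (N is any base), the repeat in the interferon-stimulated response element, searched on both strands with overlapping matches merged. Isg15 is at chr4:156200769-156201068 on the minus strand and Ifit1 at chr19:34640639-34640938 on the plus strand, with windows and source as for Chrna1.
Isg15: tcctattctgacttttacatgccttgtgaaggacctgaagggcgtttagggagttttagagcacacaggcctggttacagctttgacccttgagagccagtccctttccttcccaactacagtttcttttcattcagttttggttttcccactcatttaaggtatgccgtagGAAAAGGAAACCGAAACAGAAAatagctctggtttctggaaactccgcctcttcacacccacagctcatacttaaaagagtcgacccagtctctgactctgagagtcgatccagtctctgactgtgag
Ifit1: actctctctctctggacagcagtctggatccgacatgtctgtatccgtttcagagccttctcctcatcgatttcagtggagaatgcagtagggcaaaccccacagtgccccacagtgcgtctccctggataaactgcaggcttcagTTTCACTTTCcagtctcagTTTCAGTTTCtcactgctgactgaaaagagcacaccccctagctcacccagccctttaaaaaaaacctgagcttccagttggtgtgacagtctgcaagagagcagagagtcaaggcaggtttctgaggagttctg
Isg15 holds 3 overlapping matches and Ifit1 holds 2. Of 7 list members with a promoter entry 5 held the motif and 4 held it at least 2 times, against 3.44% and 0.225% of all promoters.

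The mean over the cell cycle list also lay above WT in replicates 1 to 3 and within WT in replicate 4. Of 10 tested cell cycle members 6 were called higher (median 0.56), beside 12.3% of all tested genes, in none did the groups separate, and 0 were called in the fit on 8 libraries. Mki67, a marker of dividing cells, had 0.127, 0.223, 0.352 and 0.792 TPM in WT and 1.94, 5.46, 0.913 and 0.441 TPM in Col6a2-/- (0.99, adjusted p 0.0180), so replicate 2 stood far above the rest and replicate 4 lay within WT. Top2a, a topoisomerase of dividing cells, had 0.348, 0.173, 0.864 and 1.55 and 2.97, 8.5, 1.48 and 0.640 TPM (1.09, adjusted p 0.0283), and here replicate 3 lay within WT too. Without knockout replicate 2 the list gave 0 calls, without knockout replicate 1 or WT replicate 1 or 2 it gave 1, and without knockout replicate 4 it gave 9.

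Among the matrix genes, the partner chains of Col6a2 were not called. Col6a1 had 31.8, 33.2, 35.9 and 40.3 TPM in WT and 67.0, 108, 55.2 and 28.8 TPM in Col6a2-/-, and Col6a3 had 25.2, 26.0, 35.7 and 41.9 and 61.9, 105, 47.7 and 25.1 TPM. In both, replicates 1 to 3 exceeded all WT libraries while replicate 4 lay below the lowest of them. The change was 0.72 (SE 0.261, adjusted p 0.0675) for Col6a1 and 0.73 (SE 0.280, adjusted p 0.0806) for Col6a3. The collagen VI receptor Antxr2 was at 0.42 (adjusted p 0.15), and the other chains Col6a6 (0.20), Col6a4 and Col6a5 (both under the TPM filter) gave no call, so Col6a2 was the only called member of 7 tested. Without replicate 4, 4 members of this list were called higher.

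Some fibrillar collagens rose. Of 9 members, 3 were called higher, beside 12.3% of all tested genes: Col3a1 from 165, 151, 211 and 282 to 613, 919, 448 and 210.0 TPM (1.29, SE 0.311, adjusted p 0.00803), Col5a2 (1.24, adjusted p 0.00293) and Col14a1 (0.98, adjusted p 0.0232), a collagen that binds the fibrils. The main tendon and bone collagen was not called: Col1a1 had 82.2, 119.9, 238 and 261 TPM in WT and 152, 288, 191 and 65.4 TPM in Col6a2-/- (-0.04, adjusted p 0.964), and Col1a2 changed by 0.26 (adjusted p 0.662). The WT libraries themselves spanned 82.2 to 261 TPM in Col1a1. None of the 9 had separate groups, with replicate 4 inside the WT range in Col3a1, Col5a2 and Col14a1. The count was 0 in the fit on 8 libraries, 1 without knockout replicate 2 and 6 without knockout replicate 4.

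Enzymes that modify collagen gave 3 calls of 10, all higher, beside 12.3% of all tested genes: Loxl1, which cross-links elastin (0.87, adjusted p 0.00615), and the lysyl hydroxylases Plod1 (0.48, adjusted p 0.0101) and Plod2 (0.87, adjusted p 0.00653). The cross-linking enzyme Lox was not called (0.32, adjusted p 0.619). Of 13 basement membrane genes 5 were called higher, again beside 12.3%: Col4a1 from 39.6, 33.2, 52.2 and 57.0 to 101, 104, 70.9 and 48.4 TPM (0.79, adjusted p 0.00905), its partner Col4a2 (0.69), the laminin chain Lamc1 (0.76), nidogen Nid1 (0.57) and Col18a1 (0.70). The muscle laminin chain Lama2 was at 0.40 (adjusted p 0.207). Without knockout replicate 2, neither list had a call, and without replicate 4 both had 8. The basement membrane count was 1 without knockout replicate 1, 2 without WT replicate 2 and 3 without WT replicate 1, and neither list had a call in the fit on 8 libraries.

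Matricellular proteins and proteoglycans gave 5 calls of 12, 5 higher and 0 lower (12.3% and 0.57% of all tested genes), among them Cilp and Postn with changes above 2. Cilp (ENSMUSG00000042254, chromosome 9, 65265180 to 65280605, plus strand), a matrix protein that binds TGFβ, had 13.5, 21.9, 13.7 and 15.5 TPM in WT and 88.9, 149.8, 73.5 and 39.8 TPM in Col6a2-/-. Postn (ENSMUSG00000027750, chromosome 3, 54361109 to 54391037, plus strand), periostin of healing tissue, had 17.1, 22.3, 21.8 and 23.1 and 103, 182, 136 and 31.0 TPM. Neither gene overlapped between genotypes, and replicate 4 was the lowest knockout library in both. The change was 2.25 for Cilp (SE 0.317, adjusted p 4.27e-05) and 2.12 for Postn (SE 0.423, adjusted p 0.00166). The small proteoglycan Bgn changed by 1.27 (adjusted p 0.000806), Vcan by 0.94 (adjusted p 0.0163) and Lum by 0.76 (adjusted p 0.0493). Decorin (Dcn), with 266, 318, 227 and 227 TPM in WT and 303, 492, 287 and 185 TPM in Col6a2-/-, was not called (0.21, adjusted p 0.524), nor were Tnc (0.91), Sparc (0.45) or Thbs4 (0.78). The count was 3 without knockout replicate 2 or WT replicate 1 or 2, 8 without knockout replicate 4 and 2 in the fit on 8 libraries. Within that last fit it became 0 without WT replicate 3, 10 without knockout replicate 4 and 1 without any other single library.

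The TGFβ pathway is the subject of the series title. Of 21 tested members 5 were called higher and 0 lower, with a median of 0.36, beside 12.3% called higher and a median of 0.17 over all tested genes. Among the ligands, Tgfb1 had 0.627, 0.520, 0.812 and 0.884 TPM in WT and 1.55, 2.17, 1.62 and 0.689 TPM in Col6a2-/- (0.52, SE 0.151, adjusted p 0.0245). Tgfb3 had 5.13, 5.69, 5.08 and 4.93 and 6.92, 10.1, 8.00 and 5.34 TPM (0.44, SE 0.145, adjusted p 0.0422). In both, replicate 4 lay within the WT range and the other 3 above it. Tgfb2 was not called (-0.08, adjusted p 0.761).

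Of the receptors, Tgfbr1 rose from 5.24, 7.16, 5.79 and 6.37 to 9.29, 15.4, 8.72 and 6.81 TPM (0.58, adjusted p 0.0224), while Tgfbr2 (0.47, adjusted p 0.142) and Tgfbr3 (0.31, adjusted p 0.241) were not called. The intracellular Smad2, Smad3, Smad4, Smad6 and Smad7 and the latent binding proteins Ltbp1, Ltbp3 and Ltbp4 were not called, with changes of 0.03 to 0.42. Among genes of the response to TGFβ, Tgif1, a corepressor of Smad signalling, had 1.0, 0.749, 0.995 and 0.881 and 3.23, 4.93, 3.52 and 1.84 TPM, without overlap (1.15, SE 0.177, adjusted p 0.000104). The targets Fn1 (1.03, adjusted p 0.0863), Pmepa1 (0.42) and Tgfbi (0.38) were not called. The count was 1 in the fit on 8 libraries (Tgif1). In that fit it became 0 without any 1 WT library or knockout replicate 1 or 3. It became 2 there without knockout replicate 2 and 8 without replicate 4. In the fit on 32 libraries the count was 2 higher and 1 lower after quantile normalization. It was 11 without knockout replicate 4 and 1 to 3 without any other single library. In the related myostatin and activin list 0 of 6 were called on the deposited scale. With median-of-ratios or quantile scaling, without the 100 most abundant genes and with array weights 2 were called lower, and 1 without mitochondrial and Rn7s genes, with the replicate block or without knockout replicate 2. Myostatin (Mstn), which limits muscle growth, had 14.0, 22.0, 12.6 and 14.8 TPM in WT and 8.70, 15.9, 6.87 and 10.8 in Col6a2-/- (-0.57, adjusted p 0.0769).

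Lists of other cell types of the muscle had fewer calls and lower median changes than the macrophage list, a difference that was not tested. Of 10 genes of fibro-adipogenic progenitors, the matrix-producing cells between fibres, 2 were called higher, Mfap5 (0.96, adjusted p 0.00122) and Sfrp4 (1.02, adjusted p 0.0305); the defining receptor Pdgfra had 9.19, 10.7, 8.8 and 9.64 and 11, 18.7, 10.5 and 8.46 TPM and was not called (0.26, adjusted p 0.293). Of 10 endothelial and mural genes, Pecam1 (0.45, adjusted p 0.0195) and Acta2 (0.75, adjusted p 0.0472) rose, and Cdh5, Kdr and Tek did not pass, beside 12.3% of all tested genes called higher. The endothelial and mural list gave 0 calls with median-of-ratios scaling, without mitochondrial and Rn7s genes, in the fit on 8 libraries, and without WT replicate 1 or knockout replicate 1 or 2. The progenitor list gave 0 in the fit on 8 libraries and 4 without knockout replicate 4. It gave 1 without WT replicate 2 or 3 or knockout replicate 1 or 2. Tenocyte (0 of 9), adipocyte (0 of 8) and erythrocyte (0 of 5) lists had no call. Adipocyte RNA differed between mice of 1 genotype: Adipoq had 23.2, 4.76, 37.6 and 33.2 TPM in WT and 42.7, 11.1, 56.0 and 12.9 in Col6a2-/-. The brown fat gene Ucp1 reached 20.5 TPM in knockout replicate 3. The part of these cell types in the changes above was not tested.

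Energy genes gave few calls on the deposited scale, and this moved with the scaling. Of 16 nuclear genes of oxidative phosphorylation 1 was called, the muscle subunit Cox6a2, which was lower (-0.30, SE 0.0928, adjusted p 0.0344) at 488, 533, 481 and 522 TPM in WT and 394, 347, 413 and 507 in Col6a2-/-. This call was lost in 18 of 28 alternatives, among them quantile normalization, the fits on 8 and 16 libraries and leaving out any 1 library other than WT replicate 3 or knockout replicate 4. The list's median was 0.01. Glycolysis (0 of 10, median -0.09), lipid oxidation (0 of 10, median 0.20) and mitochondrial genome (0 of 11, median -0.09) gave no call, where the median tested gene was at 0.17. With median-of-ratios scaling, where that median is -0.02, the medians were -0.24 for oxidative phosphorylation, -0.34 for glycolysis and -0.34 for the mitochondrial genome, and 4 of 10 glycolysis genes were called lower. In the remaining lists few genes were called, beside 12.3% of all tested genes called higher. Proteasome genes gave 2 calls of 10, Psmb5 (0.36) and the immune subunit Psmb8 (0.57), and 0 with median-of-ratios scaling or without any 1 of the WT libraries or knockout replicates 1 and 2. Ribosomal protein genes gave 1 of 8, Rpl3 (0.87, adjusted p 0.00151), and growth genes of the IGF group 1 of 10, Igfbp7 (0.64, adjusted p 0.0127). Both lists gave 0 in the fit on 8 libraries, and 4 in the fit on 32 libraries without knockout replicate 4. The IGF list also gave 0 with the 16 libraries of 5-week mice and without knockout replicate 1 or 2. Clock genes gave 0 of 10.

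Across the 40 lists, 399 of 432 genes were tested and 126 were called (31.6%), 122 higher and 4 lower, beside 12.9% of all tested genes. The lists were written with results of these data known, so this share is a description. Among called genes with at least 50 TPM in WT, the largest rises without overlap were in the calcification inhibitor Mgp and the translation factor Eef1a1. Mgp went from 62.4, 77.0, 57.2 and 49.0 to 169, 202, 133 and 106 TPM (1.28, adjusted p 0.000214). Eef1a1 went from 146, 157, 158 and 159.6 to 390.3, 512, 307 and 197 TPM (1.09, adjusted p 0.000528). Gm26377, a small RNA annotated inside Eef1a1 on the same strand, rose with it (1.12) and cannot be counted apart from it with certainty. Sparcl1 (0.51), Malat1 (0.49) and the lysosomal protease Ctsd (0.44) completed this group.

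Falls were fewer than rises and, besides Col6a2 and Rnu3a, none of the called falls without overlap went beyond -1.07. The noncoding RNA AC162693.1 (ENSMUSG00000116066, chromosome 15, 103135881 to 103140669, plus strand) had 14.5, 19.4, 11.1 and 13.2 TPM in WT and 4.66, 5.81, 5.98 and 9.26 TPM in Col6a2-/- (-1.07, SE 0.174, adjusted p 0.000198). The intergenic RNA 2310040G24Rik (ENSMUSG00000101655, chromosome 6, 86483376 to 86488227, minus strand) had 71.1, 82.0, 74.2 and 78.7 and 40.7, 43.3, 49.9 and 48.9 TPM (-0.73, SE 0.132, adjusted p 0.000659). Both had groups that did not overlap. Efcab6 (-0.80), Plet1os (-0.70, antisense to Plet1), Gm38560 (-0.69, overlapping Txnrd1) and the small nucleolar RNA Gm25291 (-0.71, inside Sec24a) were lower as well, and without stated use of strand the last 3 cannot be told from their neighbours.

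The fall of Rnu3a, a U3 small nucleolar RNA (-7.08, adjusted p 0.0115), is uncertain, since 2 IDs of this name share 1 locus. The first ID held 88.7 to 197 TPM in WT and at most 0.00376 in Col6a2-/-. The second held 63.1, 0, 79.6 and 0 TPM in WT and 196 to 350 TPM in Col6a2-/-. The sum of both was 152 to 197 TPM in WT and 263, 350, 288 and 196 TPM in Col6a2-/-, so the fall of the first ID was not seen in the sum. Snora73a and Synpo2, named after their values were seen, were the other falls of at least 2-fold and had overlapping groups. Synpo2, a Z-disc protein, had 14.4, 13.4, 17.3 and 20.4 TPM in WT and 1.85, 1.99, 9.40 and 13.6 TPM in Col6a2-/- (-1.52, adjusted p 0.0238), so the fall was large in 2 mice. Ube2v1 and Gm20431, overlapping genes again chosen after their values were seen, went in opposite directions, and how reads were assigned between them is not known here. Ube2v1 alone went from 3.17, 3.07, 2.10 and 3.27 to 10.8, 13.0, 9.86 and 12.5 TPM, while the sum of both was 8.08 to 9.54 TPM in WT and 10.7 to 13.2 TPM in Col6a2-/-, without overlap.

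**Figure D3:**
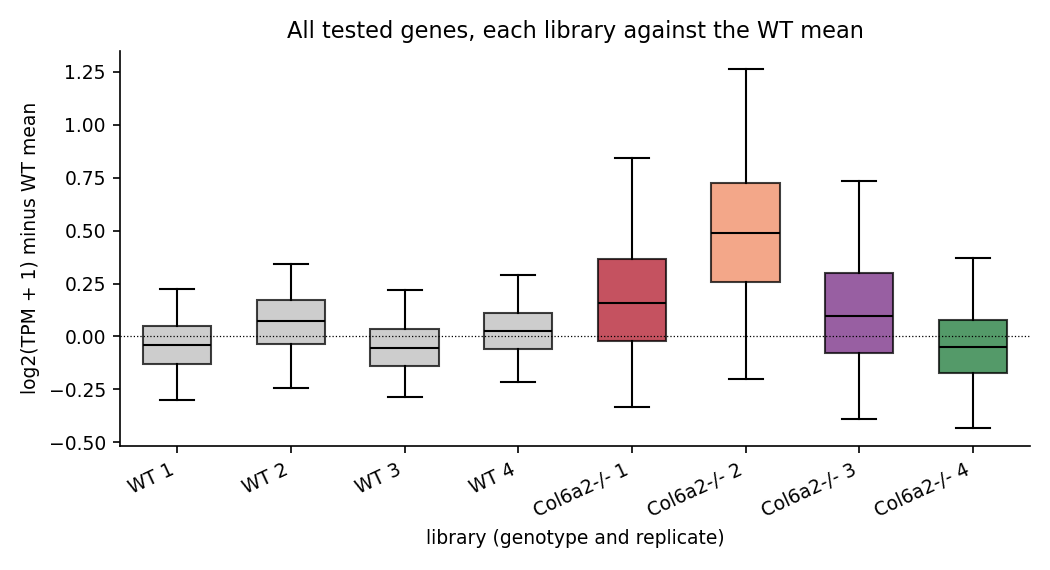
Boxes show, for each library, the change of all 12817 tested genes from the WT mean in log2(TPM + 1), with the median, the quartiles and whiskers from the 5th to the 95th percentile. Medians are 0.16, 0.49, 0.10 and -0.05 for Col6a2-/- replicates 1 to 4 and between -0.06 and 0.07 for WT.

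On the deposited scale, the Col6a2-/- libraries differed more among themselves than the WT libraries did. Spread and order were not read under other scalings. On this scale the median tested gene of replicate 2 was itself 0.49 above the WT mean, so its counts outside the WT range include that offset. The median SD of log2(TPM + 1) over 4 libraries was 0.286 in Col6a2-/- and 0.147 in WT, and 82.1% of tested genes had the larger SD in Col6a2-/-. Replicate 2 stood farthest from WT, with 10070 genes (78.6%) above the WT range and 553 (4.32%) below it. Replicate 4 was the closest, with 1928 (15.0%) above and 3581 (27.9%) below. Replicates 1 and 3 lay between, with 6283 and 5259 genes above the WT range.

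The order on the deposited scale was much the same from gene to gene. Among the 746 called genes that lay wholly above WT, replicate 2 was highest in 652 (87.4%) and replicate 4 lowest in 634 (85.0%), against 79.6% and 62.8% of all tested genes. The full order 2, 1, 3, 4 held in 461 of the 746 (61.8%) and in 36.2% of all tested genes. Of the 1648 called genes, 1566, 1574, 1527 and 782 lay above the WT range in replicates 1 to 4. On the first principal component of all 32 libraries (35.1% of variance) replicates 1 to 4 were at 29.4, 58.6, 19.3 and -9.68, with WT from -12.0 to -5.09.

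Properties of the libraries moved with this order in part. Genes with at least 1 TPM numbered 11914, 12877, 11654 and 10903 in replicates 1 to 4, and 10905 to 11151 in WT. The share of TPM outside mitochondrial and Rn7s RNA was 38.5%, 44.2%, 38.2% and 34.7%, against 33.8% to 36.9% in WT. Relative depth was 8.95, 7.45, 13.6 and 13.7, so the most deviant library was also the shallowest of the 4, and replicate 3 had nearly the depth of replicate 4. The part of these properties in the spread was not tested.

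**Figure D4:**
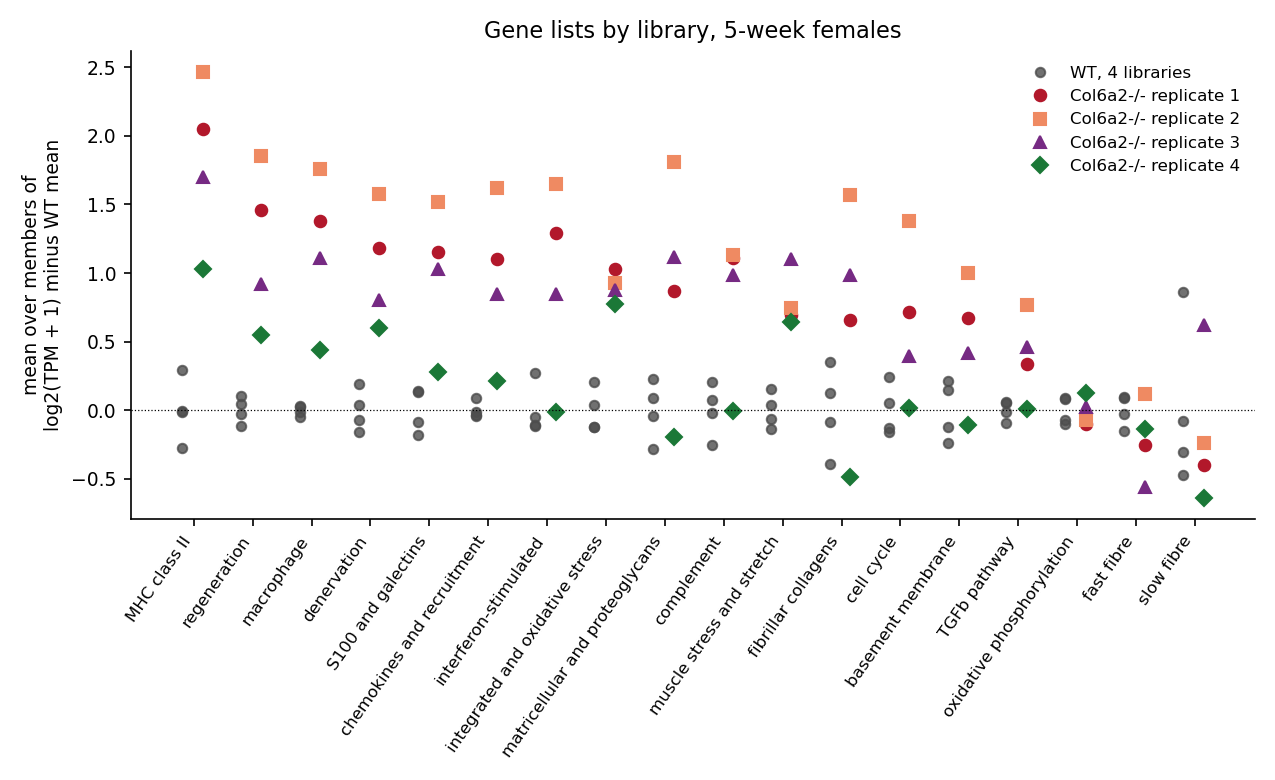
Each point is 1 library's mean over the tested members of a list of log2(TPM + 1) minus the WT mean, in grey for WT and with a shape for each Col6a2-/- replicate. In the MHC class II, regeneration, macrophage, denervation and integrated and oxidative stress lists all 4 Col6a2-/- libraries lie above WT, while replicate 4 lies within WT for interferon-stimulated, complement and cell cycle genes and below it for fibrillar collagens.

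Among the lists with many calls, some were raised in all 4 knockout mice and others in 3. As means over the members, replicates 1 to 4 stood at 2.05, 2.47, 1.70 and 1.03 for MHC class II, at 1.46, 1.86, 0.92 and 0.55 for regeneration, at 1.38, 1.76, 1.11 and 0.44 for macrophages and at 1.19, 1.58, 0.80 and 0.60 for denervation. WT libraries reached at most 0.29, 0.10, 0.03 and 0.19 in these lists, below replicate 4 in each. Fibrillar collagens stood at 0.66, 1.57, 0.99 and -0.49, with WT from -0.39 to 0.35, and cell cycle genes at 0.72, 1.38, 0.40 and 0.02, with WT up to 0.24. Here replicate 4 was below or inside the WT range.

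In the stress lists the means of the 4 libraries lay closer together. The list of integrated and oxidative stress, called and uncalled members together, stood at 1.03, 0.93, 0.88 and 0.78 and the list of muscle stress and stretch at 0.70, 0.75, 1.10 and 0.64, with WT at most at 0.20 and 0.16. These means average members that differ between libraries in opposite orders, such as Aldh3a1, highest in replicate 2 and lowest in replicate 4, and Mt2, the reverse. The p53 and growth arrest list, at 0.62, 1.15, 0.36 and 0.20, followed the common order. Leaving out replicate 4 raised the number of called genes from 1648 to 3865, and leaving out replicate 2 lowered it to 473.

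Genes in which replicate 4 was the highest knockout library were rare, 13 of the 746 (1.74%) and 6.00% of all tested genes. They include Mt1, Mt2, the mRNA decay factor Zfp36 (1.75, 2.35, 1.5 and 1.65 TPM in WT and 4.19, 3.02, 3.18 and 4.52 in Col6a2-/-), the death receptor Fas and the transglutaminase Tgm2, the last 3 named after their values were seen. By contrast, the genes with the largest SD over the knockout libraries were short or multicopy RNAs (copies of Rnu3b1, Rnu3b2, Rnu3b3 and Rnu3b4, Scarna13, Gm22133 inside Ftl1, Gm27505 inside Neat1) and the histone gene Hist2h2aa1. Each of them had low and high libraries within both genotypes, and none was called.

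The same genotypes were compared in 5-week males, with other mice and other controls. There 645 genes were called (5.03%), 583 higher (4.55%) and 62 lower (0.484%). Called in both sexes and in the same direction were 519 genes, 31.5% of the female calls and 80.5% of the male calls, and 0 were called in opposite directions. Of the 1648 genes called in females 97.9% had the same sign in males, beside 79.7% of all tested genes. The median change over these 1648 was 0.56 in females, which the choice of the genes favours, and 0.38 in males. The test of the difference between sexes called 0 genes with limma; 253 had an unadjusted p under 0.05, and the fit without the TPM filter called 5.

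Single genes that rose in females and stood lower in males did not pass that test. Jun changed by 0.69 in females and -0.07 in males, and Odc1 by 0.67 and -0.15. Ankrd23 (-0.58, adjusted p 0.0488), Amd1 (-0.85, adjusted p 0.00126) and 2310040G24Rik (-0.82, adjusted p 0.000186) fell in males as well.

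**Figure D5:**
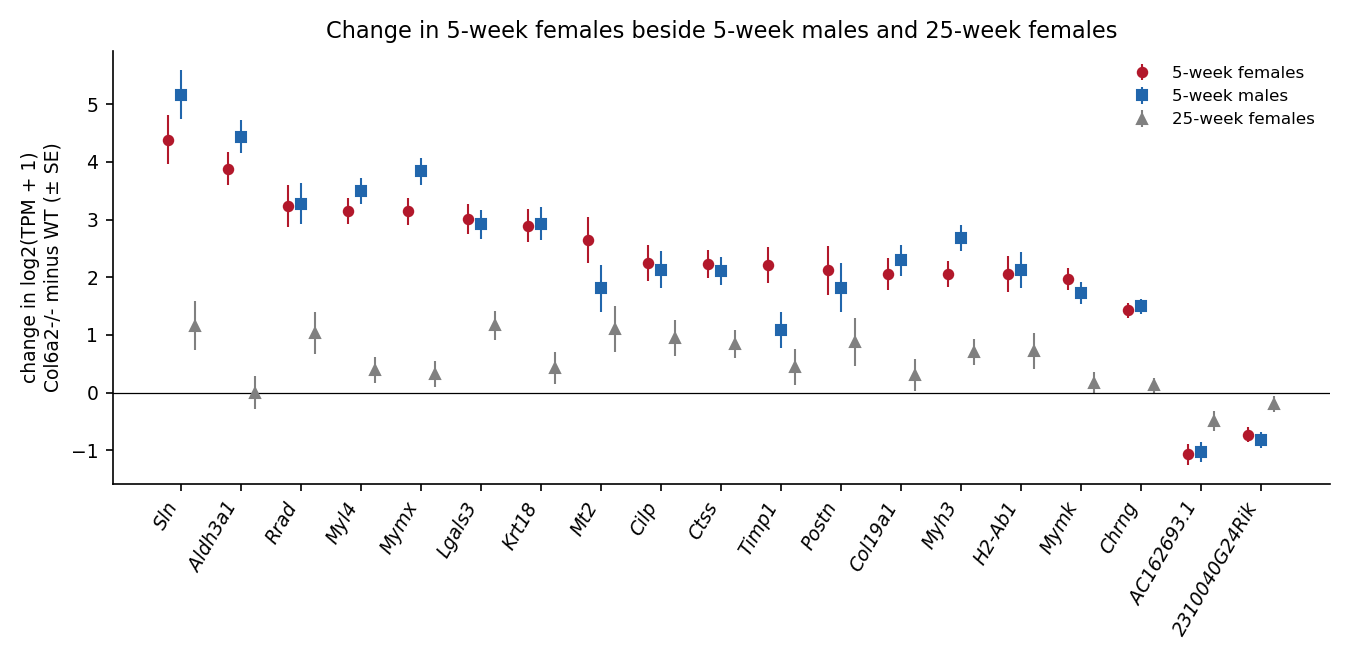
Points are changes in log2(TPM + 1), Col6a2-/- minus WT, with SE bars, in 5-week females (red circles), 5-week males (blue squares) and 25-week females (grey triangles). Both 5-week groups lie close together, with Sln at 4.39 and 5.16, while the 25-week changes are nearer to 0, with Sln at 1.16.

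At 25 weeks females gave 1 call, Col6a2 itself (0.0078%), while 621 genes passed 0.05 before adjustment. The median change over the 1648 genes called in 5-week females was 0.15 there. The difference between the ages was called for 15 genes (0.117%), each with the larger change at 5 weeks, and 1060 genes passed 0.05 before adjustment. Aldh3a1 came first by adjusted p, with a change of 3.88 at 5 weeks and 0.00 at 25 weeks and a difference of 3.88 (adjusted p 2.41e-06).

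Of the 15 genes, 5 belong to the regeneration and denervation lists (Mymx, Myl4, Mymk, Tnnt2 and Chrng). Mymx changed by 3.14 and 0.32 (difference 2.82, adjusted p 8.62e-06), Myl4 by 3.14 and 0.39 (difference 2.76, adjusted p 8.62e-06), Mymk by 1.97 and 0.16 (difference 1.81, adjusted p 0.000686) and Chrng by 1.43 and 0.13 (difference 1.30, adjusted p 0.000387). Sln, Lgals3, Krt18, Krt8, Eda2r, Mt3, Igfbp2, Mfsd7a and Plekhh1 were the other called genes, of which Krt8, Mt3, Igfbp2, Mfsd7a and Plekhh1 are named here after their values were seen. MHC class II genes did not pass: H2-Ab1 changed by 2.05 and 0.72 (difference 1.33, adjusted p 0.416). The number of called genes ran from 9 to 318 when 1 library was left out, with 318 reached without knockout replicate 4, and 5-week and 25-week mice share no animals.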

How the data were processed

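RNA from quadriceps cryosections of 32 mice was sequenced as paired-end reads from TruSeq libraries, per the labels' protocols. The submitters' processing notes name FastQC, MultiQC, Trimmomatic, HISAT2, SAMtools and StringTie with GRCm38 and mm10; versions and the strand setting are not given in the sources used here. The deposited tables give TPM, FPKM and coverage per gene, made by the authors, per the file headers, and no counts. TPM was used. FPKM and coverage signal, as deposited by the authors, served only to infer relative depth from the ratio that most genes of a library share.

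TPM rows were summed per gene ID (53801 IDs). Mitochondrial and Rn7s RNA take most of each library's TPM, so a gene's TPM also moves with their share. The 12817 genes that reached 1 TPM in 4 or more of the 32 libraries were tested. limma 3.58.1 in R 4.3.3 was fitted to log2(TPM + 1) with 8 group means and a mean-variance trend, so that the 5-week female contrast shares its spread estimate with the other groups (24 residual degrees of freedom); p-values were adjusted by Benjamini-Hochberg over all tested genes at 0.05. Fold changes on this scale understate changes of low genes. The procedure was tested on simulated data. No 2 libraries were identical.

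Genes were named by rule: Col6a2; the 15 largest rises and 8 largest falls among called genes without overlap between genotypes; the 6 largest such rises with a WT mean of at least 50 TPM; the list members; the 10 genes with the largest SD over the knockout libraries; and the 5 smallest adjusted p per direction in each interaction test. In genes named as the largest rises or falls, the lack of overlap follows from the rule. The members and the 40 gene lists were chosen with earlier results of these data known. Alternatives were other pseudocounts, TPM filters, scalings, subsets of libraries, array weights, a replicate block and leaving out each library; the list counts under other settings and leaving out libraries in the fit on 8 were chosen after seeing the data. Some list members are not reported here. Promoters came from RefSeq (GRCm38.p6), 300 bases each. Python 3.11.15 with pandas 2.3.3, scipy 1.17.1 and matplotlib 3.10.9 did the rest.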

Additional observations from a re-analysis of the deposited data

Results flagged for a closer look

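In 3 genes 1 WT library stood apart from the other 3: the gap to its nearest neighbour, as a share of the range of the 4 libraries, was above Dixon's 95% value. Sln in WT replicate 2 had a share of 0.902, with 5.53 TPM against less than 1 TPM in the other WT libraries. H2-Ab1 in WT replicate 3 had 0.854, at 8.23 TPM. Chrng in WT replicate 4 had 1, since the other 3 WT libraries are listed at 0 and this one at 0.0244 TPM. In each gene these libraries stayed below the lowest Col6a2-/- library. WT replicate 2 also had the lowest share of RNA outside mitochondrial and Rn7s genes, 33.8%, with a gap share of 0.929. In all, 72 groups of 4 were checked and 4 stood out, where chance alone marks about 1 in 20.

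The difference between the change at 5 weeks and the change at 25 weeks in females passed the limma interaction test for 15 genes, all named above. The values of 8 of them are given here, those that the rule for named genes picked by the size or rank of their changes and not only through a gene list or after their values were seen. Adjusted p was 2.41e-06 for Aldh3a1 (difference 3.88), 8.62e-06 for both Mymx (2.82) and Myl4 (2.76), 0.000387 for Chrng (1.30), 0.000686 for Mymk (1.81), 0.00212 for Krt18 (2.47), 0.0113 for Sln (3.22) and 0.0223 for Lgals3 (1.84). In all 8 genes the 4 Col6a2-/- libraries of 5 weeks lay above the 4 WT libraries. For Aldh3a1, Mymx, Myl4, Krt18, Sln and Lgals3 this was a condition of the rule that named them, so it adds no support.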

How the results depend on the processing

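The 1648 calls became 722 with at least 5 TPM, where 6573 genes were tested, 863 without mitochondrial and Rn7s genes, 104 with the 8 libraries only, 561 with the 16 libraries of 5-week mice and 2879 with array weights; other pseudocounts, no TPM filter, a robust fit and the other scalings gave 1417 to 1806. Leaving out 1 library gave 473 to 3865 calls: 752, 954 and 1073 without WT replicates 1, 2 and 3, 681 and 473 without knockout replicates 1 and 2, and 3865 without knockout replicate 4. In the fit on 8 libraries it gave 27, 34, 30 and 39 without WT replicates 1 to 4 and 33, 76, 46 and 1885 without knockout replicates 1 to 4. The sex difference gave 5 calls without a TPM filter and otherwise 0, or 1 without knockout replicate 1, so that leaving out a library gave 0 to 1. The age difference gave 15 calls, 7 with log2(TPM + 0.1), 8 with at least 5 TPM, 23 without a filter, 28 with median-of-ratios scaling and without the 100 most abundant genes, 30 after quantile normalization, 250 with array weights and 9 to 318 with 1 library left out. The cause of these moves was not tested.

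The change of Col6a2 in 5-week females stayed between -4.73 and -4.54 with 1 library left out; the exact test of 3 against 4 cannot go below 0.0571. The 143 called genes that were named by rule, list members included, were followed through the alternatives. Of these, 98 were not called with the 8 libraries only, 62 without knockout replicate 2 and 57 with 16 libraries. Without knockout replicate 1, 45 were not called. With median-of-ratios scaling 22 were not called, and 25 after quantile normalization. No direction was reversed.

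Replicate numbers gave no clear pairing of the samples. Correlations of same-numbered WT and knockout libraries were 0.23, 0.16, 0.15 and -0.06 for replicates 1 to 4, and 1 of 4 correlated best with its own number. A replicate block called 1940 genes, 1639 of them among the 1648, and none of the 143 lost its call. Depth per gene in reads is unknown from TPM, so low genes such as Chrng, Krt8 and Mki67 have no counting interval here.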

Other observations

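Clock genes, of which 0 of 10 were called between genotypes, differed between mice of the same genotype. As a mean over the list, WT replicates 1 to 4 stood at 0.21, 0.32, -0.31 and -0.22 and Col6a2-/- replicates at 0.10, -0.01, -0.18 and 0.15. The following members were chosen after their values were seen. The clock output gene Dbp had 39.5, 36.7, 7.82 and 6.58 TPM in WT replicates 1 to 4 and 21.4, 11.1, 8.67 and 22.1 TPM in Col6a2-/- replicates 1 to 4. Arntl, a core activator, ran the other way, with 1.65, 1.90, 5.97 and 7.15 TPM in WT and 2.29, 9.07, 6.51 and 1.66 TPM in Col6a2-/-. WT replicates 1 and 2 and knockout replicates 1 and 4 thus had high Dbp and low Arntl. The labels used here give no time of day for the collection of the muscle.

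Fat and fibre genes differed between mice more than between genotypes. As a mean over 8 adipocyte genes, WT replicate 2 stood at -1.19 and knockout replicates 1 and 3 at 1.15 and 1.59 relative to the WT mean. As a mean over 9 slow fibre genes, WT replicate 2 stood at 0.86 and knockout replicate 3 at 0.62.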
